A study of Arabidopsis thaliana with 8 samples.

Results

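The response of *ros1* rosettes to imazethapyr was set against that of wild-type rosettes, gene by gene, to find where the genotypes parted. The response of a genotype was log2 of FPKM (fragments scaled to transcript length and to the number mapped) under imazethapyr over FPKM in its own control. The difference of responses was the *ros1* response minus the WT response. Among 34133 genes listed, 13730 reached 1 FPKM in each of the 4 groups and were compared. Members are the 86 genes with responses of opposite sign and at least 2-fold in both genotypes, and the 489 genes with responses of the same sign that differed at least 4-fold. They were thus chosen by the values themselves, which are given as a description without a test.

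The 4 groups were *ros1* IM, *ros1* control, WT IM and WT control, with 2 libraries each and 2 entire rosettes in each library. IM plants were sprayed with imazethapyr at 10.6 g per ha, together with Dash, an adjuvant, at 0.5% v/v, and were sampled at 48 h. Control plants are labelled mock, and whether they received Dash is not stated, so the herbicide and the adjuvant cannot be told apart. All plants were Arabidopsis thaliana, of the Col-0 background by the paper. The *ros1* plants were a single insertion line (SALK_064264) with a T-DNA in the leader of the gene, by the paper a knock-down that keeps some expression. The paper also reports that a smaller share of reads aligned in *ros1* than in wild type, which limits every comparison between genotypes. Some genes left out of the comparison were low in both *ros1* groups alone. *TPX1* had 0.965 FPKM in *ros1* IM, 1.28 in *ros1* control, 359 in WT IM and 184 in WT control. The reason was not tested. The tables used list a value for *ros1* IM only where a comparison with that group marks the gene as significant. Of 16505 genes at or above 1 FPKM in the other 3 groups, 1927 had no value in *ros1* IM and 848 were under 1 FPKM there, so neither set could be members. The deposited value of a group is a single FPKM estimated over its 2 libraries, so no spread between libraries and no standard error can be computed from it, and no test was made on any value below. In RNA from whole rosettes, fewer cells of a type and less RNA per cell cannot be told apart.

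Imazethapyr inhibits acetolactate synthase (ALS), the first enzyme shared by valine, leucine and isoleucine biosynthesis. ROS1 is a DNA glycosylase that excises methylated cytosine and thereby counters RNA-directed DNA methylation, mostly near transposons and at some promoters. Herbicide stress in leaves is known to touch photosynthesis, amino acid metabolism, detoxification, phenolic pigments and the hormone pathways of defence and drought, and the genes are ordered by these roles.

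*ROS1*, the targeted gene, was at 4.08 FPKM in *ros1* IM, 19.0 in *ros1* control, 16.7 in WT IM and 25.0 in WT control. *ROS1* transcript was 4.09-fold lower in *ros1* than in WT under imazethapyr, but only 1.32-fold lower in controls. The FPKM values that the paper gives for its knock-down round to these WT IM and *ros1* IM levels, so they are not separate evidence. The control gap was under 2-fold and was not tested, so these values do not show a knock-down in control plants. The *ros1* response was -2.22 and the WT response -0.58, with a difference of -1.63. *ALS*, the herbicide target, had 229 FPKM in *ros1* IM, 308 in *ros1* control, 193 in WT IM and 293 in WT control. Its responses of -0.43 in *ros1* and -0.60 in WT were 1.13-fold apart. *ROS1* and *ALS* both lay outside the member genes.

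Across the 13730 genes, FPKM was at least 2-fold higher under imazethapyr for 17.0% in *ros1* and 12.8% in WT, and at least 2-fold lower for 23.2% in *ros1* and 15.8% in WT. Genes entered only through a significant comparison with *ros1* IM, which favours larger shares in *ros1*, so these shares do not rank the genotypes. Responses of both genotypes correlated across genes (Pearson r = 0.761), and genes are not independent replicates. The median response was 0.13 in *ros1* and 0.05 in WT, the median difference was -0.03, and the middle 90% of differences ran between -1.80 and 1.28. Responses had opposite signs in 2558 genes (18.6%). As a background for the lists below, 6645 of the 13730 genes had the higher and 7085 the lower response in *ros1*, and 575 (4.19%) were members. Of the 7 reference genes, none was a member, and their differences ran between -0.22 for *UBC28* and 0.69 for *SAND*. *UBQ10*, a polyubiquitin often used as a reference, varied widely, with 588 FPKM in *ros1* IM, 163 in *ros1* control, 1675 in WT IM and 712 in WT control.

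**Figure D1:**
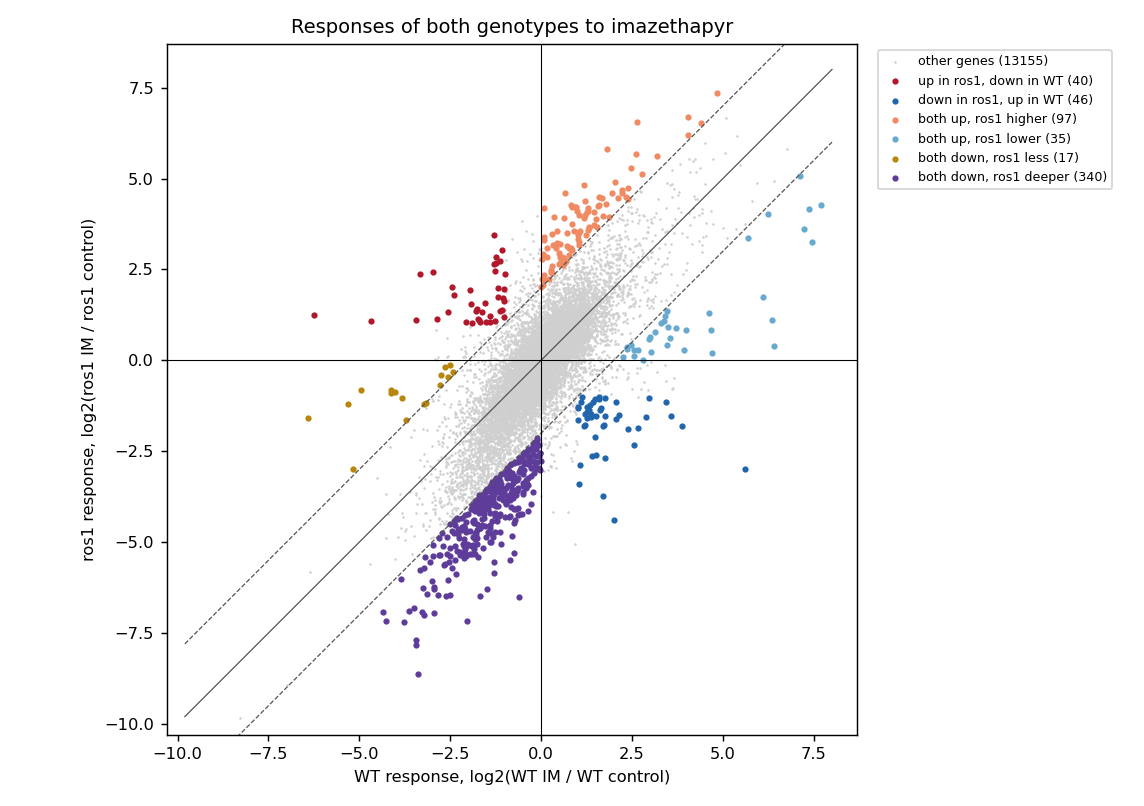
Response of each of the 13730 genes in WT (x axis) and in *ros1* (y axis), as log2 of pooled FPKM under imazethapyr over control. Coloured points are the member genes in their 6 classes with the number in each, the solid line marks equal responses, and the dashed lines mark a 4-fold difference. The 340 genes that were lower in both genotypes and deeper in *ros1* form the largest class, in the lower left.

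Of the 86 genes of opposite sign, 40 (0.291% of the genes compared) were at least 2-fold higher under imazethapyr in *ros1* and at least 2-fold lower in WT, and 46 (0.335%) went the other way. Together they made 0.626% of the genes compared. The 489 genes of the same sign made 3.56%, and most of them were lower in both genotypes. In 340 (2.48%) the decrease was at least 4-fold deeper in *ros1*, and in 17 (0.124%) it was at least 4-fold less deep. Among genes higher in both, 97 (0.706%) had the larger increase in *ros1* and 35 (0.255%) the smaller. A further 212 genes (1.54%) had responses of opposite sign at least 4-fold apart, but did not reach 2-fold in both genotypes.

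Among the 40 genes higher under imazethapyr in *ros1* and lower in WT, the median response was 1.47 in *ros1* and -1.53 in WT. AT3G24420, an alpha/beta-hydrolase on chromosome 3 (8862840 to 8864914 in TAIR10), had 9.99 FPKM in *ros1* IM, 4.19 in *ros1* control, 2.16 in WT IM and 165 in WT control. Its *ros1* response of 1.25 and WT response of -6.26 were 182-fold apart, the widest gap in this class. Most of that gap came from WT control, which was far above the other groups. *TCH4*, a xyloglucan endotransglucosylase/hydrolase of the cell wall induced by touch, behaved alike, with 14.2 FPKM in *ros1* IM, 6.80 in *ros1* control, 4.60 in WT IM and 117 in WT control. The difference of responses was 5.74 (53.3-fold). In both genes the 2 control groups differed more than the 2 IM groups.

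AT5G52050, a carrier of the MATE family of efflux proteins, had 5.97 FPKM in *ros1* IM, 1.17 in *ros1* control, 1.10 in WT IM and 11.1 in WT control. AT1G07135, a glycine-rich protein, had 90.7 FPKM in *ros1* IM, 16.7 in *ros1* control, 9.85 in WT IM and 77.6 in WT control. In each of them, *ros1* IM and WT control were the high groups and *ros1* control and WT IM the low groups, so the order of control and treatment was turned round between genotypes. The same order held for *GASA1*, a small cysteine-rich peptide of the gibberellin-regulated family, at 148 FPKM in *ros1* IM, 69.0 in *ros1* control, 11.3 in WT IM and 121 in WT control.

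AT1G66090, a TIR-NBS protein of the disease resistance class, had the largest *ros1* increase of the class, with 56.3 FPKM in *ros1* IM, 5.16 in *ros1* control, 3.03 in WT IM and 7.54 in WT control. Its responses were 3.45 in *ros1* and -1.31 in WT. *SLAH3*, a slow-type anion channel, had 14.6 FPKM in *ros1* IM, 2.02 in *ros1* control, 2.72 in WT IM and 6.42 in WT control. *CMPG1*, a U-box ubiquitin ligase of early defence, had 10.3 FPKM in *ros1* IM, 1.65 in *ros1* control, 2.20 in WT IM and 5.42 in WT control. In AT1G66090, *SLAH3* and *CMPG1* the level in *ros1* IM stood above every other group. The other genes with the widest gaps were AT2G27080, *PUP18*, *GATL10* and AT1G69900, with differences of 4.46, 4.19, 4.11 and 3.99. AT2G27080 overlaps another listed locus, and reads of such genes may be shared.

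*JAZ10*, a repressor of jasmonate signalling in the same class, had 17.1 FPKM in *ros1* IM, 6.49 in *ros1* control, 1.39 in WT IM and 4.72 in WT control. *CYP79B3*, which turns tryptophan into indole-3-acetaldoxime, had 65.3 FPKM in *ros1* IM, 32.1 in *ros1* control, 15.1 in WT IM and 55.9 in WT control. *NIA2*, the major leaf nitrate reductase, and *AGP12*, an arabinogalactan peptide of the cell surface, were the most abundant members of this class. *NIA2* had 659 FPKM in *ros1* IM, 299.6 in *ros1* control, 134 in WT IM and 444 in WT control. *AGP12* had 535 FPKM in *ros1* IM, 179 in *ros1* control, 107 in WT IM and 312 in WT control. These 2, like the calcium sensors *CML23* and *CML42*, were named after their values were seen.

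The 46 genes lower under imazethapyr in *ros1* and higher in WT had a median response of -1.53 in *ros1* and 1.54 in WT. The widest gaps were in lipid transfer proteins, small cysteine-rich proteins that bind lipids in the cell wall and cuticle. AT3G53980 had 2.30 FPKM in *ros1* IM, 18.2 in *ros1* control, 293 in WT IM and 6.02 in WT control. Its *ros1* response of -2.99 and WT response of 5.60 gave a difference of -8.59 (385-fold), the largest of all genes compared. WT IM was the single high group. AT1G48750 had 1.63 FPKM in *ros1* IM, 34.5 in *ros1* control, 111 in WT IM and 27.6 in WT control, and its locus overlaps another. *LTP2* had 5.21 FPKM in *ros1* IM, 26.3 in *ros1* control, 252 in WT IM and 42.9 in WT control. All 3 were lowest in *ros1* IM and highest in WT IM.

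Over the 40 genes annotated as lipid transfer proteins that could be compared, 35 had the lower response in *ros1* and 13 (32.5%) were members, against 575 (4.19%) of all genes compared. Their median response was -2.50 in *ros1* and -0.45 in WT, and the median difference was -1.71, against -0.03 over all genes. The family was picked with its values in view, so these counts are a description only. AT4G33550, of the same family, headed the genes that were higher in both genotypes but less so in *ros1*, with 6.82 FPKM in *ros1* IM, 5.26 in *ros1* control, 151 in WT IM and 1.77 in WT control. *LTP6* headed the genes with the deeper decrease in *ros1*, with 1.67 FPKM in *ros1* IM, 154 in *ros1* control, 125 in WT IM and 190.0 in WT control. The family thus held the widest gap of 3 of the 6 classes, which are those defined by a lower response in *ros1*.

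Next by the size of the gap in this direction was *SDI1* (AT5G48850), a tetratricopeptide protein induced by sulfur deficiency. *SDI1* had 11.1 FPKM in *ros1* IM, 38.9 in *ros1* control, 50.4 in WT IM and 3.44 in WT control. *GGCT2;1* (AT5G26220), a ChaC-like enzyme of glutathione breakdown, had 4.41 FPKM in *ros1* IM, 58.1 in *ros1* control, 21.4 in WT IM and 6.64 in WT control. AT1G64360, an uncharacterized protein, had 29.7 FPKM in *ros1* IM, 85.9 in *ros1* control, 117 in WT IM and 9.85 in WT control. In all 3, *ros1* control was already several-fold above WT control. *PNP-A*, a natriuretic peptide secreted to the apoplast, had the same order between controls, with 66.4 FPKM in *ros1* IM, 146 in *ros1* control, 111 in WT IM and 10.4 in WT control.

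Enzymes of flavonoid and anthocyanin biosynthesis, the pathway from p-coumaroyl-CoA to flavonols and red pigments, parted in the same direction. Of 21 listed enzymes 18 could be compared, and 17 of these had the lower response in *ros1*. The median response was -0.68 in *ros1* and 1.95 in WT, with a median difference of -2.84 (-3.59 over the 12 genes left by a floor of 5 FPKM). Of the 18, 8 (44.4%) were members, against 4.19% of all genes. *TT4*, chalcone synthase at the entry of the pathway, had 43.8 FPKM in *ros1* IM, 153 in *ros1* control, 1216 in WT IM and 372 in WT control, and its locus overlaps another. *CHIL*, a chalcone isomerase-like protein that assists it, had 5.68 FPKM in *ros1* IM, 36.6 in *ros1* control, 321 in WT IM and 94.8 in WT control. *F3H*, flavanone 3-hydroxylase, had 11.8 FPKM in *ros1* IM, 43.7 in *ros1* control, 419 in WT IM and 80.0 in WT control, and its locus overlaps another. Each of these enzymes was highest in WT IM and lowest in *ros1* IM.

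*TT5*, chalcone isomerase, and *5MAT*, an anthocyanin malonyltransferase, were also lower in *ros1* and higher in WT, with differences of -3.04 and -3.63. *DFR*, which commits the pathway to anthocyanins, was higher in both genotypes, with 9.58 FPKM in *ros1* IM, 7.90 in *ros1* control, 478 in WT IM and 31.1 in WT control. *FLS1*, the main flavonol synthase on the other branch, was lower in both, with 4.45 FPKM in *ros1* IM, 58.2 in *ros1* control, 60.0 in WT IM and 125 in WT control. *LDOX*, *GSTF12* and *UGT75C1*, late anthocyanin genes, had differences of -4.38, -4.15 and -4.01 but were under 2-fold in *ros1*, and so were no members. The loci of *UGT75C1* and *RHM1* overlap others. *RHM1*, a rhamnose synthase, was the single enzyme of the list with the higher response in *ros1* (0.82). Of 20 listed flavonoid regulators 10 could be compared, and none of these was a member. Among them the repressor *MYBL2* was furthest apart, with 2.51 FPKM in *ros1* IM, 3.13 in *ros1* control, 17.0 in WT IM and 1.86 in WT control. *MYB90*, a myb domain protein left out by the floor, had 28.1 FPKM in *ros1* IM, 0.257 in *ros1* control, 98.1 in WT IM and 1.14 in WT control.

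*COR15A*, a chloroplast protein that protects membranes in the cold, was among the most abundant genes with turned sign. It had 8.74 FPKM in *ros1* IM, 53.4 in *ros1* control, 1510.4 in WT IM and 533 in WT control, with a difference of -4.11. *ros1* control was 9.98-fold under WT control. *KIN1*, another cold-regulated gene, was higher in both genotypes, with 1.75 FPKM in *ros1* IM, 1.12 in *ros1* control, 104 in WT IM and 13.0 in WT control. Its neighbour *COR6.6* is a near-identical copy, so the split of reads between them is uncertain. Of 14 cold-regulated genes and CBF factors compared, 10 had the lower response in *ros1*, with a median difference of -0.88. Of the 14, 2 (14.3%) were members, against 4.19% of all genes.

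*NF-YA5*, a subunit of the CCAAT-binding factor, had 1.39 FPKM in *ros1* IM, 4.07 in *ros1* control, 10.3 in WT IM and 1.41 in WT control. *OZF1*, a CCCH zinc finger protein linked to oxidative stress, had 2.89 FPKM in *ros1* IM, 10.4 in *ros1* control, 51.0 in WT IM and 7.99 in WT control. AT2G26695, a RanBP2-type zinc finger protein, had 2.45 FPKM in *ros1* IM, 26.0 in *ros1* control, 13.2 in WT IM and 6.38 in WT control. Of 25 NF-Y subunits compared, 21 had the lower response in *ros1* and 4 (16.0%) were members, against 4.19% of all genes. This family too was picked with its values in view.

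**Figure D2:**
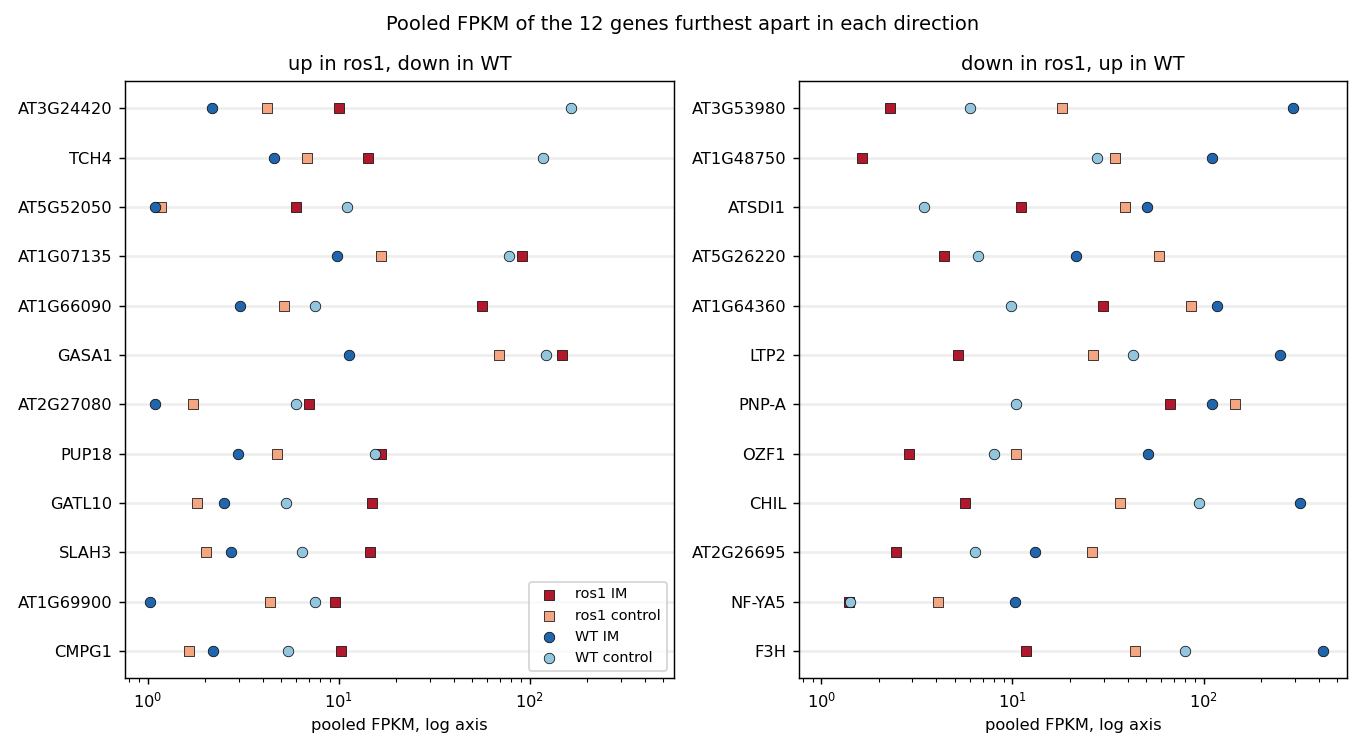
Pooled FPKM (log axis) in the 4 groups for the 12 genes with the widest gap in each direction among genes of opposite sign. Squares are *ros1* and circles WT, dark for imazethapyr and light for control. On the left the dark squares lie right of the light squares and the dark circles left of the light circles, and on the right the order is turned round. ATSDI1 is *SDI1*, and AT5G26220 is *GGCT2;1*.

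To see what upstream sequences the classes held, the 250 bases before the annotated start of 13686 of the compared genes were searched on both strands for short motifs. The W-box core TTGAC, bound by WRKY factors, was in 67.5% of the 40 promoters of genes higher in *ros1* and lower in WT, against 44.3% of all compared genes. The ABRE core ACGTG, bound by bZIP factors of abscisic acid signalling, was in 10.0% of the same promoters, against 23.4% of all. Among the 46 genes lower in *ros1* and higher in WT, ACGTG was in 39.1% and TTGAC in 54.3%. ACGTG was most frequent, at 62.9%, in the 35 genes higher in both but less so in *ros1*. It was in 42.3% of the 97 genes higher in both with the larger increase in *ros1*, of which 61.9% held TTGAC. In the 339 genes with the deeper decrease in *ros1*, TTGAC was in 35.4% and ACGTG in 29.2%.

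Promoters of 5 genes are shown because they carry the motif whose share was far from the background in their class. The first 2 belong to genes higher in *ros1* and lower in WT, with TTGAC (or GTCAA on the other strand) in capitals. The last 3 belong to genes with the lower response in *ros1*, with ACGTG (or CACGT) in capitals. Where both strands match as CACGTG, the site is also a G-box, which was in 7.46% of all promoters, 13.0% of those of the 46 genes and none of those of the 40. Sequences and positions are from the RefSeq annotation of TAIR10.1, and each run ends at the base before the gene's start.
AT5G52050, chr5:21138453-21138702, plus strand: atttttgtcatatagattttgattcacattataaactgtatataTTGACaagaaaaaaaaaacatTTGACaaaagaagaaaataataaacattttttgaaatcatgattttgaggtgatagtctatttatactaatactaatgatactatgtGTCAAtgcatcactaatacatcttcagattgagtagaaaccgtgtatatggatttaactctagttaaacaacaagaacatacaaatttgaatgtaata
CMPG1, chr1:24636946-24637195, plus strand: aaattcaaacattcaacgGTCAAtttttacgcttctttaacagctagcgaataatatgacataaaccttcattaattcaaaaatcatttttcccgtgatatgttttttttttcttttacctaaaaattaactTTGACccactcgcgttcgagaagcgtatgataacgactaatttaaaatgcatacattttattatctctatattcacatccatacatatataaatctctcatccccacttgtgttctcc
CHIL, chr5:1563036-1563285, plus strand: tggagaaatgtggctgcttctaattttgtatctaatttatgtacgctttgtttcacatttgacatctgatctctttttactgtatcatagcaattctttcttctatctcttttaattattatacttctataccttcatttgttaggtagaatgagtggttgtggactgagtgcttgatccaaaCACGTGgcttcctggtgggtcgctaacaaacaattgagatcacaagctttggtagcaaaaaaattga
COR15A, chr2:17712331-17712580, minus strand: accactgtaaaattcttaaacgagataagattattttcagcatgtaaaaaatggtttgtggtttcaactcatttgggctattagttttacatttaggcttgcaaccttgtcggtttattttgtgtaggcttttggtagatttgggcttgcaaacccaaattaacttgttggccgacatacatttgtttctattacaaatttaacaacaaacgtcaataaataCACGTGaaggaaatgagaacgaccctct
RAB18, chr5:26519448-26519697, minus strand: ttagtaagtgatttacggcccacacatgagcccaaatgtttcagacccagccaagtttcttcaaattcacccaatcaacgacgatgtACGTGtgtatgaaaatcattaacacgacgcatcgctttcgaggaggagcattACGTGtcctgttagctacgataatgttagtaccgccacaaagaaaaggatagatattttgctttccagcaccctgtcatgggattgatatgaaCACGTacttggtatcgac

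*AT5G52050* held 3 copies of TTGAC and *CMPG1* 2 copies, *RAB18* held 3 copies of ACGTG, and *CHIL* and *COR15A* each held a G-box. *COR15A* also held 2 copies of CCGAC, the CRT/DRE core bound by CBF factors, which was in 13.3% of all promoters and in 15.0% and 15.2% of those of the 40 and the 46 genes. The as-1 core TGACG was in 34.8% of the promoters of the 46 genes, against 19.4% of all. The site II element TGGGCC, common upstream of growth genes, was in 2.17% to 8.57% of the promoters of the opposite-sign and both-up classes, against 18.3% of all. A match shows only that these letters occur in the window, and TTGAC and TGACG can overlap.

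The 97 genes higher in both genotypes with the larger increase in *ros1* had a median response of 3.63 in *ros1* and 0.96 in WT. The widest gap was that of *CYP79B2*, the partner of *CYP79B3* in making indole-3-acetaldoxime for camalexin and indole glucosinolates. *CYP79B2* had 409 FPKM in *ros1* IM, 22.5 in *ros1* control, 56.8 in WT IM and 53.2 in WT control. Its responses were 4.18 in *ros1* and 0.09 in WT, 17.0-fold apart. *UGT74F2*, which glucosylates salicylic acid, had 166 FPKM in *ros1* IM, 1.76 in *ros1* control, 33.1 in WT IM and 5.29 in WT control. *JAZ1*, a jasmonate repressor that is itself induced by jasmonate, had 174 FPKM in *ros1* IM, 11.3 in *ros1* control, 29.9 in WT IM and 23.5 in WT control. In these 3 genes *ros1* IM was the highest group and *ros1* control the lowest.

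The others with the widest gaps were AT5G22860 (a serine carboxypeptidase), AT1G76600 and AT5G05600 (an oxygenase dependent on 2-oxoglutarate), whose responses were 16.0-fold, 15.3-fold and 12.4-fold apart. In 50 of the 97 genes the WT response was under 2-fold, while that of *ros1* was at least 2-fold in all 97. The most abundant gene was *GSTU19*, a glutathione S-transferase of the tau class, named after its values were seen, with 3004 FPKM in *ros1* IM, 496 in *ros1* control, 589 in WT IM and 478 in WT control. Levels of 3 of these groups lay close together and *ros1* IM stood apart.

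Among 18 jasmonate genes compared, 13 had the higher response in *ros1*, with a median difference of 0.58, and 4 (22.2%) were members, against 4.19% of all genes. *JAZ5* had responses of 2.83 in *ros1* and 0.58 in WT. *AOC2*, an allene oxide cyclase of jasmonate synthesis, went the other way, with 119.6 FPKM in *ros1* IM, 651 in *ros1* control, 337 in WT IM and 397 in WT control. Of 6 camalexin genes compared, 4 had the higher response in *ros1*, with a median difference of 0.71, or 1.62 over the 4 genes left by a floor of 5 FPKM. *PAD3*, the last enzyme of camalexin synthesis, was at 825 FPKM in *ros1* IM, 14.7 in *ros1* control, 201 in WT IM and 1.85 in WT control, so its larger response was that of WT (difference -0.95).

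The 35 genes higher in both genotypes with the smaller increase in *ros1* had a median response of 0.83 in *ros1* and 3.49 in WT, and included *PR1* and *PR2* of the salicylic acid list. *PR1*, the classical marker of that pathway, had 5111 FPKM in *ros1* IM, 2364 in *ros1* control, 688 in WT IM and 8.41 in WT control. It was 37.8-fold apart in response, yet higher in *ros1* than in WT under both conditions. *PR2*, a beta-1,3-glucanase, had 1281 FPKM in *ros1* IM, 722 in *ros1* control, 304 in WT IM and 11.8 in WT control. The chitinase AT2G43570 had 808 FPKM in *ros1* IM, 85.0 in *ros1* control, 396 in WT IM and 2.25 in WT control. For all 3 the lowest group by far was WT control. *PR5*, another pathogenesis-related gene, had a difference of 0.04, with 2158 FPKM in *ros1* IM, 741 in *ros1* control, 178 in WT IM and 62.8 in WT control. Over the 18 salicylic acid genes compared, 7 had the higher and 11 the lower response in *ros1*, with a median difference of -0.22. The 2 members (11.1%, against 4.19% of all genes) were *PR1* and *PR2*.

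*LSU1*, a small protein of low-sulfur response, had 51.1 FPKM in *ros1* IM, 44.3 in *ros1* control, 119 in WT IM and 4.62 in WT control. AT1G80130, a tetratricopeptide protein, had 45.8 FPKM in *ros1* IM, 13.6 in *ros1* control, 264 in WT IM and 3.82 in WT control. *RAB18*, a dehydrin induced by abscisic acid, had 49.8 FPKM in *ros1* IM, 27.0 in *ros1* control, 543 in WT IM and 41.3 in WT control. *LTP3* had 59.4 FPKM in *ros1* IM, 3.33 in *ros1* control, 678 in WT IM and 4.07 in WT control. For *RAB18* and *LTP3* the controls were close and the gap arose under imazethapyr, unlike *PR1*.

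Of 17 abscisic acid and drought genes compared, 9 had the higher and 8 the lower response in *ros1*, with medians of 1.70 in *ros1* and 2.18 in WT. Their median difference of 0.14 turned to -0.22 with a floor of 5 FPKM and to -0.25 with a pseudocount of 1. Protein phosphatases of that pathway were close, with *ABI1* at 0.41, *HAB1* at 0.48 and *HAI2* at 0.22 on the log2 scale of the difference. *GOLS2*, a galactinol synthase, reached -4.37 with 1.23 FPKM in *ros1* IM, 2.07 in *ros1* control, 63.5 in WT IM and 5.16 in WT control. Of 10 senescence and starvation genes compared, 7 had the higher response in *ros1*, with a median difference of 0.75. The 2 members there, *WRKY6* and *GPT2*, lay in opposite directions, at 2.30 and -2.05.

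**Figure D3:**
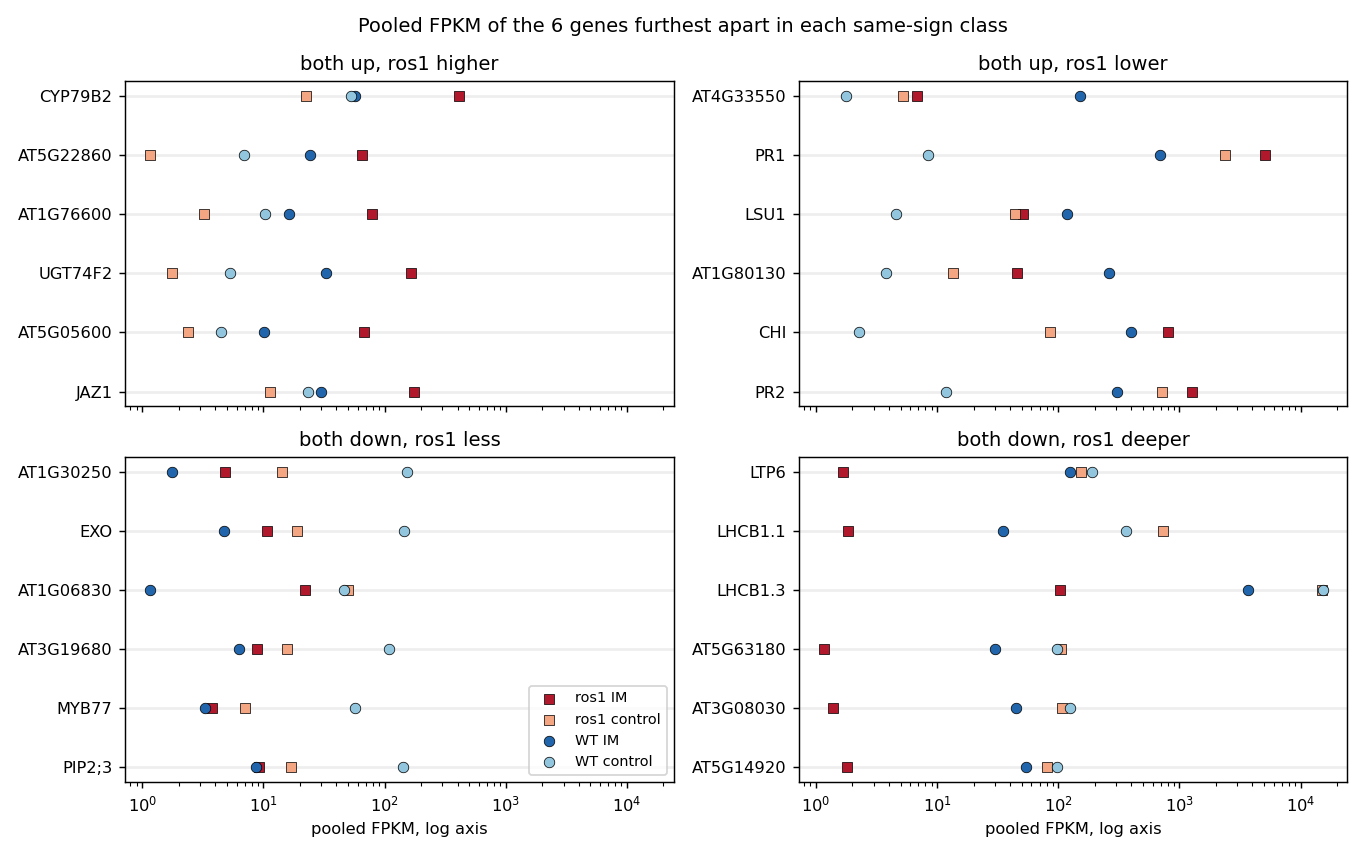
Pooled FPKM (log axis) in the 4 groups for the 6 genes with the widest gap in each of the 4 same-sign classes. Squares are *ros1* and circles WT, dark for imazethapyr and light for control. In the lower right panel the dark square lies far left of the other symbols, and for *PR1*, *PR2* and *LSU1* in the upper right panel the light circle lies far left. CHI is the chitinase AT2G43570.

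The 17 genes lower in both genotypes and less so in *ros1* had a median response of -0.88 in *ros1* and -3.71 in WT, and a median of 57.4 FPKM in WT control. *EXO*, a wall protein of brassinosteroid-promoted growth, had 10.8 FPKM in *ros1* IM, 19.0 in *ros1* control, 4.70 in WT IM and 146 in WT control. AT1G30250, an uncharacterized protein, had 4.79 FPKM in *ros1* IM, 14.3 in *ros1* control, 1.76 in WT IM and 152 in WT control. *PIP2;3*, a plasma membrane aquaporin with near-identical relatives, had 9.15 FPKM in *ros1* IM, 16.9 in *ros1* control, 8.72 in WT IM and 142 in WT control. *MYB77*, a transcription factor of auxin response, had 3.78 FPKM in *ros1* IM, 7.04 in *ros1* control, 3.27 in WT IM and 57.0 in WT control. In these 4 genes WT control stood alone, and both IM groups were low. AT1G06830, a glutaredoxin, differed from them, with 22.1 FPKM in *ros1* IM, 50.3 in *ros1* control, 1.17 in WT IM and 46.2 in WT control. There the controls were alike and WT IM was the single low group. AT3G19680, of unknown function, had a difference of 3.30 and a locus that overlaps another.

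The 340 genes lower in both genotypes and deeper in *ros1* had a median response of -4.00 in *ros1* and -1.35 in WT, and held most listed genes of the photosystems. Of 36 listed genes of the photosystems and their antennae, 35 could be compared, and all 35 had the lower response in *ros1*. Of these, 31 (88.6%) were in this class, against 2.48% of all genes compared. The median response was -4.99 in *ros1* and -2.04 in WT, with a median difference of -3.00. The abundant antenna gene *LHCB1.3* had 103 FPKM in *ros1* IM, 14958 in *ros1* control, 3684 in WT IM and 15154 in WT control. *LHCB1.1* had 1.85 FPKM in *ros1* IM, 734 in *ros1* control, 34.7 in WT IM and 361 in WT control. *LHCB1.2* had 14.9 FPKM in *ros1* IM, 3072 in *ros1* control, 141 in WT IM and 1529.7 in WT control. The *LHCB1* genes are near-identical copies whose reads can be assigned to one another.

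The same order was found outside the *LHCB1* copies. *LHCB3*, a linker antenna of photosystem II whose locus overlaps another, had 11.8 FPKM in *ros1* IM, 889.6 in *ros1* control, 91.8 in WT IM and 709.6 in WT control. *PSAD1*, on the stromal side of photosystem I, had 60.8 FPKM in *ros1* IM, 2407 in *ros1* control, 546 in WT IM and 2350.2 in WT control. *PSBP1*, of the oxygen-evolving complex, had 112 FPKM in *ros1* IM, 3367 in *ros1* control, 828 in WT IM and 3619.7 in WT control. Controls of both genotypes were close in all 3, WT IM was clearly lower, and *ros1* IM was lower again. The 4 outside it were *LHCB4.1*, *PSBS*, *PSBX* and *PSBY*, with differences of -1.86, -1.84, -1.95 and -1.44.

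Genes of the Calvin cycle, which fixes carbon with the energy captured by the photosystems, decreased in both genotypes and more deeply in *ros1*. All 19 genes had the lower response in *ros1*, with a median difference of -1.99. Of them, 9 (47.4%) were in the deeper class, against 2.48% of all genes compared. *RBCS1A*, a small subunit of Rubisco and the most abundant member, had 1042 FPKM in *ros1* IM, 26309 in *ros1* control, 6115 in WT IM and 27669 in WT control. *GAPA2*, a glyceraldehyde-3-phosphate dehydrogenase, had 30.9 FPKM in *ros1* IM, 1257 in *ros1* control, 231 in WT IM and 1601 in WT control. *TKL1*, *PGK2* and *PDTPI* had smaller differences of -0.35, -0.19 and -0.37.

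Glucosinolates are sulfur-rich defence compounds made from amino acids, the aliphatic ones from methionine. Of 19 glucosinolate genes compared, 7 were in the class with the deeper decrease in *ros1*, against 2.48% of all genes compared. They were the regulator *MYB28* and the enzymes and transporter *MAM1*, *BCAT4*, *CYP79F1*, *CYP83A1*, *FMOGS-OX1* and *BAT5*. *BCAT4*, the first enzyme of methionine chain elongation, had 26.2 FPKM in *ros1* IM, 339 in *ros1* control, 170.2 in WT IM and 238 in WT control, and its locus overlaps another. *BAT5*, which carries the chain-elongation intermediate into the chloroplast, had 2.26 FPKM in *ros1* IM, 60.2 in *ros1* control, 36.2 in WT IM and 78.8 in WT control. *CYP83A1* had 28.8 FPKM in *ros1* IM, 346 in *ros1* control, 195 in WT IM and 309 in WT control. *CYP81F2*, which modifies indole glucosinolates, was the other member of the list, with responses of 3.10 in *ros1* and 0.15 in WT. Over the 19 genes, 8 had the higher and 11 the lower response in *ros1*, with a median difference of -0.58. Members of any class made 42.1% of the list, against 4.19% of all genes.

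Other members of this class were AT5G63180 (a pectin lyase-like protein), AT3G08030 and AT5G14920 (a gibberellin-regulated protein), each under 2 FPKM in *ros1* IM. AT5G63180 had 1.17 FPKM in *ros1* IM, 105 in *ros1* control, 30.2 in WT IM and 97.0 in WT control. Of 9 xyloglucan endotransglucosylases compared 4 were in this class, against 2.48% of all genes, and *TCH4* was the single one with turned sign. *TIP2;1*, a vacuolar aquaporin, had 2.69 FPKM in *ros1* IM, 397 in *ros1* control, 32.0 in WT IM and 436 in WT control, and its locus overlaps another. Of 16 aquaporins compared, 12 had the lower response in *ros1*. *4CL3*, the ligase that feeds flavonoid synthesis, was the single phenylpropanoid enzyme among the members (difference -3.08), while the list as a whole had a median difference of 0.75. The alpha-expansin *EXPA4*, which loosens walls, was at -2.04, and 3 alpha-expansins could be compared.

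Of 11 genes of branched-chain amino acid synthesis, the pathway that imazethapyr blocks, 1 (9.09%) was a member, against 4.19% of all genes. The median difference was 0.06, or -0.02 once each response was centred on its median. That gene, *IMDH1*, an isopropylmalate dehydrogenase that also serves methionine chain elongation for glucosinolates, had 25.6 FPKM in *ros1* IM, 220.0 in *ros1* control, 140.2 in WT IM and 246 in WT control, and its locus overlaps another. *IMDH2* and *IMDH3* had differences of 0.01 and -0.27. Among 10 genes of branched-chain amino acid breakdown none was a member, with *BCDHB1* furthest at -0.90.

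Several other lists held no member. Of 28 listed cell cycle genes, 16 could be compared. These had medians of -1.50 in *ros1* and -1.40 in WT with a median difference of -0.14, which was 0.06 with a floor of 5 FPKM. The medians do not cover genes left out by the floor of 1 FPKM. *CDKB2;1*, a cyclin-dependent kinase so left out, had 0.299 FPKM in *ros1* IM, 20.2 in *ros1* control, 4.14 in WT IM and 19.9 in WT control. *KNOLLE*, a syntaxin, had 0 FPKM in *ros1* IM, 22.9 in *ros1* control, 6.70 in WT IM and 60.4 in WT control. The 36 core histones had medians of -1.44 in *ros1* and -1.33 in WT. Of 8 heat shock genes *HSP15.7* was furthest at -2.11, and of 8 clock genes *PRR7* at -1.74 and *GI* at -1.65. The 15 genes of DNA methylation and demethylation had a median difference of -0.57, or 0.02 with a floor of 5 FPKM, with *ROS1* and *IDM1* (-1.52) the furthest. Of 7 genes of alternative respiration, *AOX1A* had 319 FPKM in *ros1* IM, 14.7 in *ros1* control, 168 in WT IM and 18.2 in WT control. *DIC2*, a mitochondrial dicarboxylate carrier, was 13.0-fold apart with opposite signs but under 2-fold in *ros1*. Of 294 ribosomal protein genes 1 (0.340%) was a member.

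**Figure D4:**
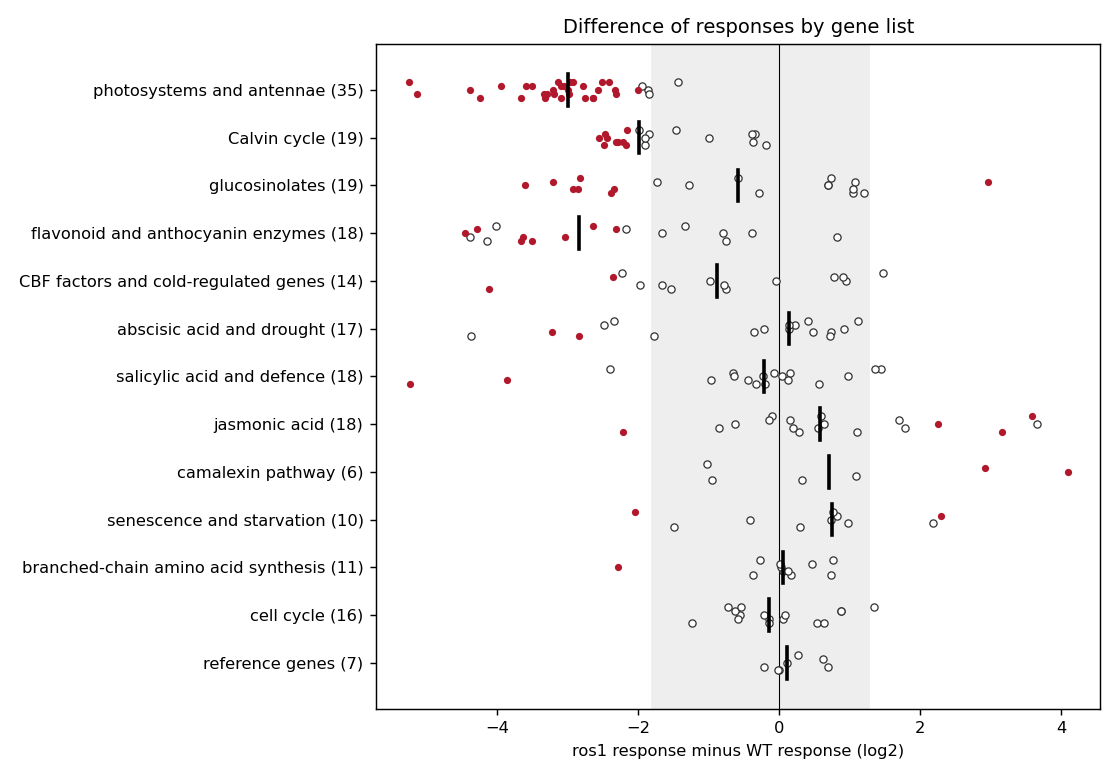
Difference of responses (*ros1* minus WT, log2) of each compared gene in 13 lists, with the number of genes in brackets. Red points are members, open points other genes, black bars list medians, and the grey band holds the middle 90% of all genes compared. Photosystem genes lie left of 0 throughout with a median of -3.00, and flavonoid enzymes have a median of -2.84.

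A difference of responses is also the *ros1* over WT ratio under imazethapyr minus the same ratio in controls, so each class was split by where the genotypes differed. Over all genes compared, *ros1* was at least 2-fold above WT for 8.74% under imazethapyr and 4.22% in controls, and at least 2-fold below WT for 18.1% under imazethapyr and 7.04% in controls. The standard deviation of the log2 ratio over genes was 1.11 under imazethapyr and 0.72 in controls. Entry through a significant comparison with *ros1* IM favours wider ratios under imazethapyr, so these values do not show that the genotypes lay further apart there. Of the 340 genes with the deeper decrease in *ros1*, 305 (89.7%) were within 2-fold in controls but lower in *ros1* under imazethapyr. Likewise 73 (75.3%) of the 97 genes with the larger increase in *ros1* were within 2-fold in controls and higher in *ros1* IM. Controls were within 2-fold for 88.7% of all genes compared, so close controls are not particular to these classes. With controls within 2-fold, a 4-fold difference of responses requires a gap past 2-fold under imazethapyr, so that gap follows from the choice of members.

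In the other classes more genes differed between the controls, which the choice of members also favours, since the control ratio is part of the difference. Of the 40 genes higher in *ros1* and lower in WT, 22 had at least 2-fold less in *ros1* control compared with WT control. The choice of members favours both this lower *ros1* control and a higher *ros1* IM, and 37 had at least 2-fold more in *ros1* IM than in WT IM. Of the 46 genes lower in *ros1* and higher in WT, 21 were higher in *ros1* control, 19 were within 2-fold and 6 were lower. Of the 35 genes with the smaller increase in *ros1*, 19 were already higher in *ros1* control. Of the 17 genes with the smaller decrease, 13 were lower in *ros1* control. In the deeper class, *AOP2*, named after a glucosinolate side-chain enzyme, differed between controls. Its levels were 31.1 FPKM in *ros1* IM, 578 in *ros1* control, 26.8 in WT IM and 38.8 in WT control. Whether its product is active in these plants was not tested.

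**Figure D5:**
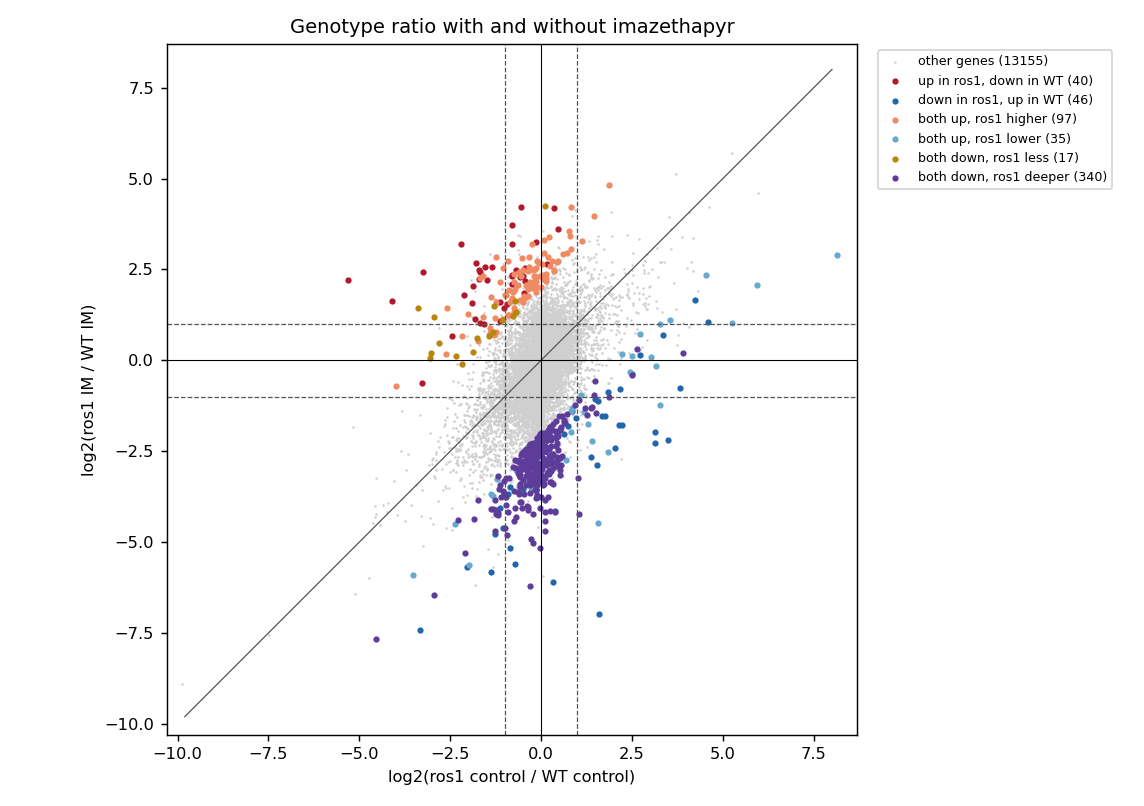
Log2 ratio of pooled FPKM in *ros1* over WT, in controls (x axis) and under imazethapyr (y axis), for the 13730 genes compared. Colours mark the 6 classes as in the plot of responses, dashed lines mark 2-fold and the solid line equal ratios. The 340 genes with the deeper decrease lie mostly below the plot's centre, with 305 of them within 2-fold in controls.

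Median FPKM of the 340 deeper genes was 4.12 in *ros1* IM, 75.9 in *ros1* control, 31.7 in WT IM and 85.7 in WT control, against 17.5, 17.7, 18.3 and 18.0 over all genes in the same order. The 97 genes with the larger increase in *ros1* had medians of 72.9, 3.53, 19.7 and 5.52 FPKM in that order, with low levels in both controls. The members lay on all 5 chromosomes, with 23.3% of the opposite-sign genes on chromosome 1, 17.4% on 2, 24.4% on 3, 11.6% on 4 and 23.3% on 5, against 26.2%, 15.1%, 20.2%, 15.2% and 23.3% of all genes compared. The locus overlapped another listed gene in 23.9% of the 46 genes lower in *ros1* and higher in WT and in 18.8% of the 340 deeper genes, against 15.8% of all. Without the overlapping loci these classes held 35 and 276 genes.

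As markers of green tissue, photosystem genes were abundant in both controls and in WT IM, and much lower in *ros1* IM, where *LHCB1.3* had 103 FPKM. The flower and seed genes were under 1 FPKM in the 3 groups with values, and had none in *ros1* IM. *STM*, a shoot meristem gene, had 0.204 FPKM in *ros1* IM, 4.34 in *ros1* control, 4.58 in WT IM and 3.93 in WT control. Of the root genes, *SHR* alone was above 1 FPKM, between 5.77 and 15.7. Most markers had no value in *ros1* IM, so their part in the results was not tested.

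Genes nearest the thresholds were as follows. Just inside the class higher in *ros1* and lower in WT were AT2G25735, *HMT-1* and *FRB1*, whose smaller response was 1.003, 1.022 and 1.024 in size on the log2 scale. Just outside were AT2G38870, *PAP1* (AT2G01180) and *EXL4* at 0.993, 0.988 and 0.978. For the class lower in *ros1* and higher in WT, AT4G31330, *UCN* and *SPL5* were inside at 1.002, 1.010 and 1.010. AT2G43620, *SPL3* and *GRP-3* were outside at 0.998, 0.996 and 0.967. For genes higher in both, differences of 2.001, 2.003 and 2.013 in size put *RING1*, *SUS1* and *TSB1* inside, and 1.997, 1.994 and 1.978 left *XTH24*, *SS2* (AT1G74020) and AT5G43450 outside. For genes lower in both, AT3G15480, AT1G72430 and AT1G65486 were inside at 2.001, and *BGLU44*, AT5G62350 and *SBPASE* outside at 1.998, 1.997 and 1.994.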

How the data were processed

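RNA-seq was made from rosettes in 8 libraries, 2 for each of the 4 groups, and samples were grouped by the labels. Per the study's methods and the submitters' notes, the authors checked reads with FastQC 0.10.1, trimmed them with the FASTX-Toolkit, aligned them to TAIR10 with TopHat2 and Bowtie2, and estimated FPKM with Cufflinks and Cuffdiff, whose versions are not given in the sources used here. The deposited FPKM values are 1 per gene and group, estimated by the authors over both libraries. Values per library and the depth were not used here, so no interval or leave-one-out could be made, and no test was. Whether strand was used in counting is not stated, so reads of overlapping genes cannot be told apart, nor those of near-identical copies.

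Values were gathered over the table of all genes and the first sheets of 6 comparison workbooks, which repeat 157256 values with 0 unequal. Every gene in these first sheets is marked significant by the authors' Cuffdiff test, whatever its fold, which limits *ros1* IM to 17284 genes. The deposited columns of the authors' own comparisons (log2 ratios, test statistics, p-values, q-values and calls) and 26 further sheets were not used. Ratios were computed without a pseudocount, with a floor of 1 FPKM, in Python 3.11.15 with numpy 2.4.6, pandas 2.3.3 and matplotlib 3.10.9. The scripts were tested on simulated data. Locus intervals were converted to count from 1, and 13687 of the 13730 genes matched a RefSeq locus tag of TAIR10.1, the source of names, families and promoters.

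The genes named are the 12 with the widest gap in each direction among opposite signs and the 6 widest in each same-sign class. Added to them are up to 4 members of each list (the 2 furthest apart where it had none), *ROS1*, *ALS* and the 3 genes on either side of each threshold. Families and any further genes were picked with their values in view. The members and lists were chosen with earlier results of these data known. Alternatives tried were no floor, a floor of 5 FPKM, a pseudocount of 1, centred responses, stricter folds, overlapping loci left out, and genes listed in both first sheets.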

Additional observations from a re-analysis of the deposited data

How the results depend on the processing

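No paired analysis was possible because each group has a single pooled value, and for the same reason no library could be left out. The 40 genes higher in *ros1* and lower in WT became 80 with no floor, 13 with a floor of 5 FPKM, 22 with a pseudocount of 1 and 5 at 3-fold. The 46 genes lower in *ros1* and higher in WT became 91 with no floor, 19 with a floor of 5 FPKM and 11 at 3-fold. The 114 same-sign genes with the higher response in *ros1* became 305 with no floor, 49 with a floor of 5 FPKM and 24 at 8-fold. The 375 with the lower response became 877, 158 and 104 under the same settings. Fewer genes enter with a higher floor and fewer can pass a stricter fold, and the pseudocount draws ratios of low values towards 0. Centring, leaving out overlapping loci and the genes listed in both first sheets kept these 4 counts within 1.5 times. The same-sign counts pool genes higher and lower in both genotypes, and the classes within them were not recounted. Centring gave 34, 46, 109 and 424 genes in the order above. A pseudocount of 1 moved 20 of 91 named genes and turned the median of the abscisic acid list. A floor of 5 FPKM moved 5 of 26 list medians by over 1.5 times, those of flavonoid enzymes (-3.59), camalexin (1.62), DNA methylation (0.02), alpha-expansins (-1.03) and serine synthesis (1.09).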

Other observations

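Lists in this section were chosen after their values were seen, and counts over them are descriptions only. Touch and rapid wound genes, induced within minutes of handling or wounding, had the higher response in *ros1* in 15 of 16 genes compared, with a median difference of 2.44. Of the 16, 10 (62.5%) were members, against 4.19% of all genes, of which 6645 of 13730 had the higher response in *ros1*. *MYB44*, a transcription factor of stress response, had 159.5 FPKM in *ros1* IM, 24.9 in *ros1* control, 45.8 in WT IM and 108 in WT control. *BT2*, a BTB and TAZ domain protein, had 8.45 FPKM in *ros1* IM, 66.6 in *ros1* control, 3.88 in WT IM and 140.0 in WT control. *ZAT10*, a zinc finger repressor, had 105 FPKM in *ros1* IM, 12.2 in *ros1* control, 27.0 in WT IM and 15.8 in WT control. *ERF11* was the exception in sign, at -0.07.

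Tryptophan synthesis had the higher response in *ros1* in 9 of 11 genes, with medians of 2.08 in *ros1* and 0.50 in WT. *ASA1*, the anthranilate synthase subunit at its entry, had 367 FPKM in *ros1* IM, 43.6 in *ros1* control, 47.4 in WT IM and 26.8 in WT control. *TSA1*, the alpha subunit of tryptophan synthase, had 636 FPKM in *ros1* IM, 72.1 in *ros1* control, 96.3 in WT IM and 58.4 in WT control. *PAI1* and *PAI3*, related copies of 1 enzyme, were the genes with the lower response. In serine synthesis *PGDH1* had 770.1 FPKM in *ros1* IM, 137 in *ros1* control, 149.6 in WT IM and 124 in WT control, while its isoform *PGDH3* was at -1.29. In *ASA1*, *TSA1* and *PGDH1*, *ros1* IM stood apart from the other groups. Sulfur starvation genes went the other way, with the lower response in *ros1* in 11 of 13 and a median difference of -1.12. *LSU3* had 29.2 FPKM in *ros1* IM, 28.7 in *ros1* control, 36.3 in WT IM and 5.25 in WT control.

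The floor left out 3457 genes with a value in all 4 groups, of which 424 reached 20 FPKM in some group. In 848 genes *ros1* IM alone was under 1 FPKM, against 143 for *ros1* control, 67 for WT IM and 298 for WT control. Of the 848 genes, 146 had at least 20 FPKM in WT control. *TT7*, flavonoid 3'-hydroxylase, had 0.980 FPKM in *ros1* IM, 1.36 in *ros1* control, 208 in WT IM and 13.7 in WT control. *LHCB2.3* had 0.398 FPKM in *ros1* IM, 43.7 in *ros1* control, 8.35 in WT IM and 39.4 in WT control. *LTP4* had 6.24 FPKM in *ros1* IM, 0.547 in *ros1* control, 494 in WT IM and 0.413 in WT control.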
